A study of Mus musculus with 2 samples.

Results

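The genes described here are 10 that encode proteins for recognising dying cells: 8 cell-surface receptors (Timd4, Havcr2, Stab1, Mertk, Axl, Itgav, Cd36 and Lrp1) and 2 secreted bridges (Gas6 and Mfge8). They were taken by symbol from the gene list of a mouse thymus single-cell RNA-seq library, and all 10 were found among its 32285 genes. Their levels are given over 3185 cells, which were kept of 3214 barcodes by having at least 500 unique molecular identifiers (UMIs, each a counted transcript molecule), at least 300 detected genes and at most 10% mitochondrial UMIs. Cell classes were set from other marker genes, and none of the 10 genes or of the pathway genes listed further on took part in the clustering.

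A cell that dies by apoptosis turns the lipid phosphatidylserine to its outer surface, and phagocytes read it as a signal to engulf the cell. Some receptors bind the lipid directly. Others bind a secreted bridge protein that holds the lipid with its other end. In the thymus most developing T cells die during selection, and macrophages and dendritic cells take up their remains.

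Adult C57BL/6 mice with no named treatment or genetic change gave the thymus, which was digested with enzymes, sorted for CD64+ cells and sequenced with the 10x Genomics 3′ chemistry in 2 libraries, from 2021 and 2024. How many animals were pooled is not given in the sources used here. Gene names were available for the 2021 library alone, so every level below is from 1 library, and no test or p-value is given. Intervals are exact 95% intervals (Poisson for levels, Clopper-Pearson for shares, conditional for ratios) and cover counting error only. The 2021 library held 8534578 UMIs with a median of 2157.5 per barcode, and the 2024 library 24569270 UMIs with a median of 5312.

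The labels call the sorted cells macrophages, but the markers divided them into many classes. The 8 macrophage markers (among them C1qa, C1qb, C1qc and Adgre1) marked 369 macrophage-like cells with a median of 2479 UMIs. There were 470 monocyte-like cells (median 1990), 710 conventional dendritic-like cells (3417) and 116 mature dendritic-like cells (2809). Neutrophil-like (487 cells, median 1704), T lineage-like (384), natural killer and innate lymphoid-like (297), B lineage-like (211) and basophil or mast-like cells (11) made up most of the rest, and 130 cells stayed unnamed. The neutrophil-like class is given beside each gene as a class expected to lack most of them. Markers of other classes were present in the macrophage-like cells, with the list of 9 neutrophil markers at 3444 per 1000000 UMIs of the same cells (CPM) and the 12 T lineage markers at 162. In mature dendritic-like cells the neutrophil list stood at 7877 CPM. The 6 fibroblast markers had no UMI in any macrophage-like, monocyte-like or dendritic-like cell. Fcgr1, the gene of the sort marker CD64, stood at 139 CPM in macrophage-like and 72.6 in monocyte-like cells. It was at 8.33 CPM in conventional dendritic-like (21 UMIs) and 4.37 in neutrophil-like cells (5 UMIs), with no UMI in mature dendritic-like cells. CD64 protein on each cell is not in these counts. The part of RNA from other cells in the levels below was not tested, except where a value is given.

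The first group binds phosphatidylserine directly. Timd4 (TIM-4, ENSMUSG00000055546, GRCm38 chr11:46810800-46844332, plus strand, protein-coding), a tethering receptor of resident macrophages, reached 60.1 CPM in macrophage-like cells (66 UMIs, interval 46.5 to 76.5). It stood at 38.5 CPM in conventional dendritic-like cells (97 UMIs, interval 31.2 to 46.9) and at 30.02 in mature dendritic-like cells (10 UMIs, interval 14.4 to 55.2). Monocyte-like cells had 4 UMIs, or 3.98 CPM, so that Timd4 was 15.1-fold higher in macrophage-like than in monocyte-like cells (5.64 to 57.1). Timd4 was thus shared between the macrophage-like cells and a part of the dendritic-like cells, and low in the monocyte-like cells. In the finer clusters described further on, the Cd209e-led dendritic-like cells had 79 Timd4 UMIs (97.6 CPM). The more numerous Ccl17-led cells had 9 (5.40 CPM). Neutrophil-like cells had no Timd4 UMI in 487 cells (3 UMIs would have been 2.62 CPM), and against that floor the macrophage-like level was at least 22.9-fold higher, with a lower limit of 18.1 by the exact interval. Of the 186 Timd4 UMIs, 52.2% lay in conventional dendritic-like and 35.5% in macrophage-like cells. The share of conventional and mature dendritic-like cells together was 57.5% here. It ran from 14.2 to 58.1% over other ways of filtering and naming the cells. Some of these name plasmacytoid dendritic-like cells or leave more cells unnamed, and such cells are not in this share.

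Havcr2 (TIM-3, ENSMUSG00000020399, chr11:46454935-46481255, plus strand, protein-coding) binds phosphatidylserine and is also known as an inhibitory receptor of T cells and dendritic cells. It was spread over macrophage-like, monocyte-like and conventional dendritic-like cells. Its level was 76.5 CPM in conventional dendritic-like (193 UMIs, interval 66.1 to 88.1), 60.1 in macrophage-like (66 UMIs, interval 46.5 to 76.5) and 50.7 in monocyte-like cells (51 UMIs, interval 37.7 to 66.6). Macrophage-like cells did not differ from conventional dendritic-like cells beyond counting error (ratio 0.786, 0.585 to 1.04) nor from monocyte-like cells (ratio 1.19, 0.811 to 1.74). Neutrophil-like cells stood at 14.9 CPM (17 UMIs), and T lineage-like cells at 19.0 CPM (15 UMIs). The neutrophil-like UMIs lay in 10 cells, and 1 cell held 5 of them.

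Stab1 (stabilin-1, ENSMUSG00000042286, chr14:31139013-31168641, minus strand, protein-coding), a large scavenger receptor of macrophages and endothelium, was rare and almost all in macrophage-like cells. They held 26 of its 29 UMIs (89.7%, 72.6 to 97.8%), which is 23.7 CPM (15.5 to 34.7). Monocyte-like, conventional dendritic-like and unnamed cells had 1 UMI each, and mature dendritic-like and neutrophil-like cells had none. The ratio of macrophage-like to monocyte-like cells was 23.8, with a counting interval from 3.92 to 977. Exons of Nt5dc2 overlap Stab1 on the opposite strand, and whether the counting used strand is not given in the sources used here.

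The second group is the receptor kinases and their bridge. Mertk (ENSMUSG00000014361, chr2:128698956-128802894, plus strand, protein-coding), a receptor tyrosine kinase that drives engulfment once Gas6 or protein S has bound, was the most macrophage-restricted of the 10 by share of UMIs among those with more than 50. Macrophage-like cells held 91 of its 95 UMIs (95.8%, 89.6 to 98.8%) at 82.9 CPM (66.8 to 102). The monocyte-like and the conventional dendritic-like class had 1 UMI each and the T lineage-like class 2. The macrophage-like level was 83.4-fold that of monocyte-like cells, on an interval from 14.6 to 3331, with a single UMI in the latter.

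Axl (ENSMUSG00000002602, chr7:25757273-25788705, minus strand, protein-coding), the related kinase, reached more classes. Its level was 413 CPM in macrophage-like cells (453 UMIs, interval 376 to 453), where 53.4% of cells had a UMI (197 of 369). It was 40.0 CPM in conventional dendritic-like (101 UMIs), 35.8 in monocyte-like (36 UMIs) and 15.01 in mature dendritic-like cells (5 UMIs). The macrophage-like level was 11.5-fold that of monocyte-like (8.21 to 16.7) and 10.3-fold that of conventional dendritic-like cells (8.29 to 12.9). These neighbours in the order did not differ from each other beyond counting error (monocyte-like over conventional dendritic-like 0.893, 0.593 to 1.32). Neutrophil-like cells stood at 6.99 CPM (8 UMIs), and were positive in 1.23% of cells. With every cell thinned to 2000 UMIs and cells below that depth dropped, Axl was detected in 46.1% of 256 macrophage-like cells, 7.33% of 232 monocyte-like, 5.13% of 643 conventional dendritic-like and 2.03% of 197 neutrophil-like cells.

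Gas6 (ENSMUSG00000031451, chr8:13465374-13494490, minus strand, protein-coding), the bridge that binds both kinases, was at the limit of detection. The kept cells held 3 Gas6 UMIs in all, each in a different macrophage-like cell (2.73 CPM, 0.564 to 7.99). Exons of Tmem255b overlap it on the opposite strand. In the other classes no UMI was seen, and in conventional dendritic-like cells a level of 1.19 CPM would have given 3. Few Gas6 UMIs were thus detected beside those of the kinases, and cells outside the CD64 sort were not measured. Pros1 encodes protein S, the other bridge of Mertk. The gene is in the list of other bridges and, like Itgb3 and Stab2 below, is named here after its values were seen. It was present at a low level, with 20 UMIs in macrophage-like (18.2 CPM), 15 in monocyte-like (14.9 CPM), 26 in conventional dendritic-like (10.3 CPM) and none in mature dendritic-like cells.

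**Figure D1:**
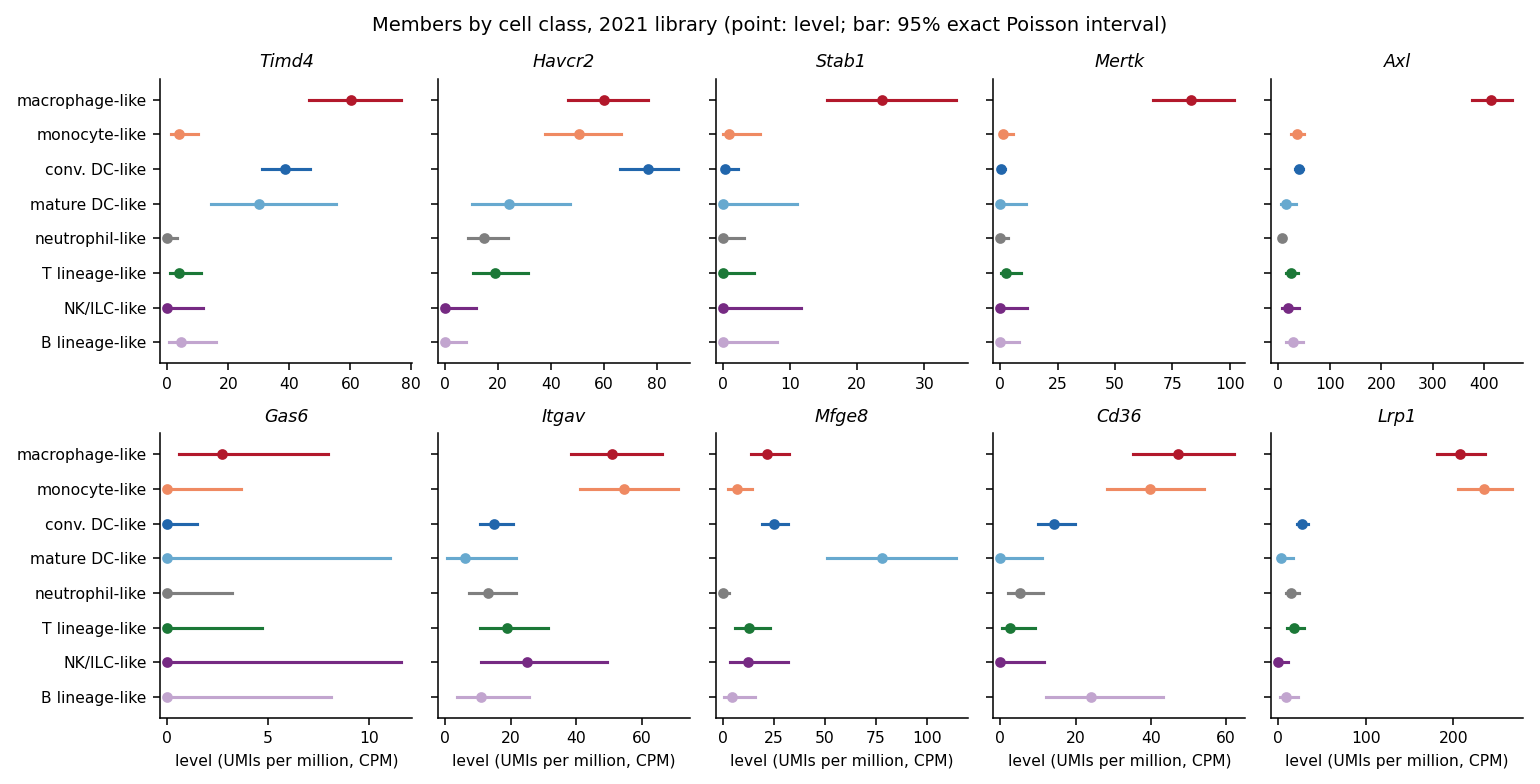
Level of each of the 10 genes (CPM, horizontal axis, a separate linear scale per gene) in 8 cell classes of the 2021 library, with points for the level of the summed cells and bars for the exact 95% Poisson interval. Mertk, Stab1 and Axl are highest in macrophage-like cells, Lrp1 and Itgav are as high in monocyte-like cells (235 and 54.7 CPM), and Mfge8 is highest in mature dendritic-like cells (78.0 CPM).

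The integrin route pairs a receptor subunit with its bridge. Itgav (ENSMUSG00000027087, chr2:83724397-83806916, plus strand, protein-coding), the integrin αv chain, stood at 54.7 CPM in monocyte-like (55 UMIs, interval 41.2 to 71.2) and 51.0 in macrophage-like cells (56 UMIs, interval 38.5 to 66.3), a ratio of macrophage-like to monocyte-like cells of 0.933 (0.632 to 1.38). It was lower in conventional dendritic-like cells, at 15.1 CPM (38 UMIs), close to the 13.1 CPM of neutrophil-like cells (ratio 1.15, 0.618 to 2.25). The αv chain works with a β chain. In macrophage-like cells Itgb5 had 110 UMIs and Itgb3 2, although counts of different genes also depend on how well each 3′ end is captured. Exons of Gm13684 overlap Itgav on the opposite strand.

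Mfge8 (ENSMUSG00000030605, chr7:79133768-79149060, minus strand, protein-coding), the bridge that αv integrins bind, followed another order. It was highest in mature dendritic-like cells, at 78.0 CPM (26 UMIs, interval 51.0 to 114), and 16 of 116 cells (13.8%) had a UMI. Conventional dendritic-like cells stood at 25.0 CPM (63 UMIs, interval 19.2 to 32.0), macrophage-like cells at 21.9 (24 UMIs, interval 14.0 to 32.5) and monocyte-like cells at 6.96 (7 UMIs, interval 2.80 to 14.3). The mature dendritic-like level was 3.12-fold that of conventional dendritic-like cells (1.90 to 5.01) and 3.57-fold that of macrophage-like cells (1.97 to 6.49). A single mature dendritic-like cell held 10 of the 26 UMIs. Without it the level was 48.7 CPM (27.8 to 79.0), an interval that overlaps that of conventional dendritic-like cells. Neutrophil-like cells had no Mfge8 UMI in 487 cells (3 cells would be 0.616%, and the exact upper limit for cells with a UMI is 0.755%). Of the receptor chain Itgav, mature dendritic-like cells had 2 UMIs (6.00 CPM, 0.727 to 21.7), fewer than the floor of 3. This does not set them apart from conventional dendritic-like cells (ratio 0.398, 0.0466 to 1.54).

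The last pair are scavenger receptors with many ligands. Cd36 (ENSMUSG00000002944, chr5:17781690-17888801, minus strand, protein-coding), which also takes up fatty acids and oxidised lipoproteins, stood at 47.4 CPM in macrophage-like (52 UMIs, interval 35.4 to 62.1) and 39.8 in monocyte-like cells (40 UMIs, interval 28.4 to 54.1), a ratio of 1.19 (0.774 to 1.85). Conventional dendritic-like cells stood at 14.3 CPM (36 UMIs), B lineage-like cells at 24.2 (11 UMIs, 4 of them in 1 cell) and neutrophil-like cells at 5.24 (6 UMIs, 4 of them in 1 cell). No Cd36 UMI was seen in 116 mature dendritic-like cells.

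Lrp1 (ENSMUSG00000040249, chr10:127538161-127621148, minus strand, protein-coding), a large endocytic receptor that binds calreticulin on dying cells among other ligands, was shared by monocyte-like and macrophage-like cells. It stood at 235 CPM in the former (236 UMIs, interval 206 to 266) and 208 in the latter (228 UMIs, interval 182 to 237), a ratio of macrophage-like to monocyte-like cells of 0.886 (0.735 to 1.07). Dendritic-like cells were far below, at 27.4 CPM (69 UMIs) for conventional and 3.002 CPM (1 UMI) for mature cells. After thinning, 28.5% of macrophage-like, 27.2% of monocyte-like, 5.13% of conventional dendritic-like and 1.02% of neutrophil-like cells had an Lrp1 UMI.

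Across the 10 genes, macrophage-like cells were compared with all other kept cells by the log2 ratio of levels with 10 CPM added to both sides, over genes with at least 50 UMIs. Of 8814 such genes, 506 (5.74%) were at least 2-fold higher in macrophage-like cells, and 316 (3.59%) at least 2-fold lower. Of the 8 members tested, 6 were at least 2-fold higher and none 2-fold lower. The log2 ratio was 3.51 for Axl, 3.14 for Mertk, 1.88 for Lrp1, 1.42 for Timd4, 1.26 for Cd36 and 1.04 for Itgav. Itgav was just past the 2-fold mark and Havcr2 (0.43) and Mfge8 (0.27) were under it, while Stab1 and Gas6 had too few UMIs to be counted. The median of the 8 was 1.34, against 0.07 over all genes tested.

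The count shrank against monocyte-like cells alone. There 3 of 7 members tested (Timd4, Mertk and Axl) were at least 2-fold higher in macrophage-like cells, against 7.43% of 4617 genes, and none lower, against 2.62%. The median of the 7 was 0.21. Against conventional dendritic-like cells 5 of 8 (Mertk, Axl, Itgav, Cd36 and Lrp1) were at least 2-fold higher, against 9.85% of 6103 genes, and none lower, against 2.06%. The median of the 8 was 1.26. The 3 comparisons share the macrophage-like cells. Summed over each class, Timd4, Mertk and Axl thus set macrophage-like apart from monocyte-like cells by this fold, and Lrp1, Itgav and Cd36 did not. In the Cxcl9-led finer cluster described below, nearly all of it macrophage-like, Timd4 and Mertk had 1 UMI each (2.96 CPM) and Axl stood at 299 CPM.

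Summed over the 8 receptors, macrophage-like cells held 1038 of 2291 UMIs (45.3%) although they were 11.6% of the kept cells. The summed level was 946 CPM in macrophage-like, 421 in monocyte-like, 213 in conventional dendritic-like, 78.0 in mature dendritic-like and 55.1 in neutrophil-like cells. The 149 bridge UMIs, all but 3 of them Mfge8, were distributed otherwise. Conventional dendritic-like cells held 42.3% of them, macrophage-like cells 18.1% and mature dendritic-like cells 17.4%. In mature dendritic-like cells the receptor and the bridge sum were 78.0 CPM each (26 UMIs), with 10 of the Mfge8 and 5 of the Timd4 UMIs in single cells. In macrophage-like cells the receptor sum was 946 and the bridge sum 24.6 CPM.

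**Figure D2:**
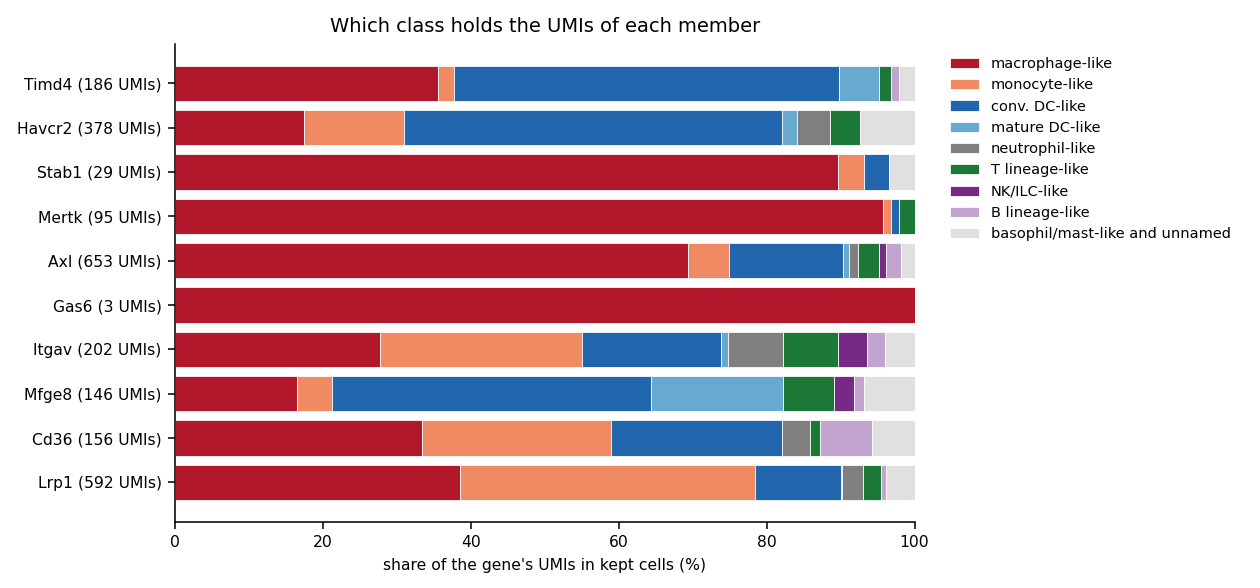
Share of the UMIs of each gene (percent, horizontal axis) that each class holds, with the gene's total UMIs in kept cells beside its name. Macrophage-like cells (dark red) hold 95.8% of Mertk, 89.7% of Stab1 and 69.4% of Axl UMIs, whereas conventional and mature dendritic-like cells (blues) hold 57.5% of Timd4, 53.2% of Havcr2 and 61.0% of Mfge8 UMIs here (as little as 14.2, 42.6 and 43.2% with other filters or class names), and the Gas6 bar rests on 3 UMIs.

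The same cells were clustered more finely to see how the genes vary inside the classes. The 369 macrophage-like cells came from 2 clusters, and the finer clustering divided nearly all of them over 3 clusters, which are named here by a leading gene. The Spic-led cluster (75 cells) was also led by Gdf15, Vcam1 and Slc40a1, genes known from macrophages that recycle iron. The Prg4-led cluster (188 cells) was led by Ccl12, Pf4 and C1q genes. The Cxcl9-led cluster (113 cells, of which 110 were macrophage-like) was led by Cxcl10 and interferon-response genes, and the marker rule names it monocyte-like when it stands alone.

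Mertk was highest in the Spic-led cells, at 296 CPM (66 UMIs, interval 229 to 377), and was detected in 41 of 75 cells. It stood at 43.9 CPM in the Prg4-led cells (24 UMIs) and at 2.96 in the Cxcl9-led cells (1 UMI), so the Spic-led level was 6.75-fold the Prg4-led one (4.17 to 11.3). Mertk also ranked eighth by fold among the genes leading the Spic-led cluster, although it had no part in making it. Timd4 kept the same order, at 144 CPM (32 UMIs), 58.6 (32 UMIs) and 2.96 (1 UMI).

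Axl did not fall away in this manner. It stood at 790 CPM in the Spic-led cells (176 UMIs, interval 678 to 916), 322 in the Prg4-led cells (176 UMIs) and 299 in the Cxcl9-led cells (101 UMIs), and the last of these did not differ from the Prg4-led level beyond counting error (Prg4-led over Cxcl9-led 1.08, 0.839 to 1.39). The Cxcl9-led cells therefore had Axl transcripts with hardly any Mertk. Lrp1 was 2.45-fold higher in Spic-led than in Prg4-led cells (377 against 154 CPM, 1.79 to 3.36), and Itgav 2.56-fold higher (103 against 40.3 CPM, 1.37 to 4.82).

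Stab1, Cd36 and Mfge8 were highest in the Prg4-led cells among these clusters. They had 23 of the 29 Stab1 UMIs (42.1 CPM, 26.7 to 63.2), against 1 UMI in the Spic-led and 2 in the Cxcl9-led cells. Cd36 stood at 86.0 CPM (47 UMIs) against 31.4 in the Spic-led cells (7 UMIs, Spic-led over Prg4-led 0.365, 0.139 to 0.813). It had no UMI in the Cxcl9-led cells, so that against a floor of 3 UMIs the Prg4-led level was at least 9.69-fold higher, with a lower limit of 7.58 by the exact interval. Mfge8 stood at 38.4 CPM (21 UMIs) against 8.98 (2 UMIs) and 2.96 (1 UMI). Stab2, the gene of the related stabilin-2, followed another order: 19 of its 23 macrophage-like UMIs lay in the Spic-led cells (85.3 CPM) and 4 in the Prg4-led cells (7.32 CPM), the reverse of Stab1.

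**Figure D3:**
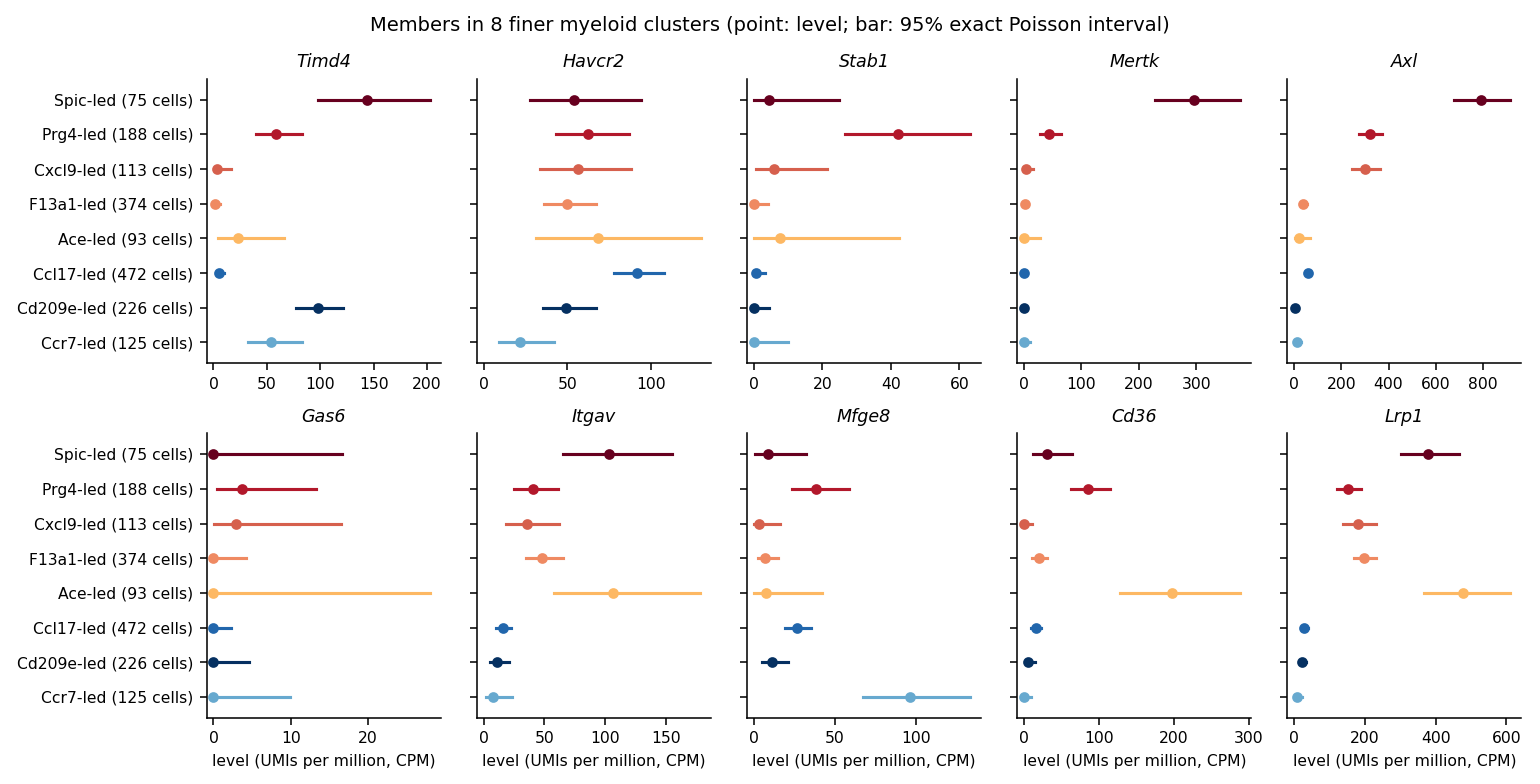
Level of each gene (CPM, horizontal axis, a separate linear scale per gene) in 8 finer clusters of myeloid cells named by a leading gene, with exact 95% Poisson intervals as bars. Mertk and Axl peak in Spic-led cells (296 and 790 CPM), Stab1 in Prg4-led cells (42.1) and Cd36 in Ace-led cells (197). Lrp1 is highest in Ace-led cells (478), but not beyond counting error against Spic-led cells (377, ratio 1.27, 0.899 to 1.78). Mfge8 peaks in Ccr7-led cells (96.4), where 1 cell holds 10 of the 36 UMIs.

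Among monocyte-like cells the finer clustering separated F13a1-led cells (374 cells, mostly of classical monocyte markers) from Ace-led cells (93 cells, with 7 of 8 nonclassical monocyte markers raised). Cd36 stood at 197 CPM in Ace-led cells (26 UMIs, interval 129 to 289) and 19.6 in F13a1-led cells (17 UMIs, interval 11.4 to 31.4), a 10.1-fold ratio (5.26 to 19.8). Lrp1 was 2.41-fold higher (478 against 198 CPM, 1.78 to 3.23) and Itgav 2.19-fold higher (106 against 48.4 CPM, 1.11 to 4.10). The Ace-led cells were shallow, with a median of 1250 UMIs against 2133. The Ace-led Cd36 level was 6.27-fold that of the Spic-led cells (31.4 CPM, 2.65 to 17.1), and the Prg4-led cells, at 86.0 CPM, lay between them. Mertk had 1 UMI in the F13a1-led and none in the Ace-led cells.

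Dendritic-like cells divided over Timd4 and Axl in opposite directions. The Ccl17-led cells (472 cells) had Timd4 at 5.40 CPM (9 UMIs) and Axl at 58.8 (98 UMIs). The Cd209e-led cells (226 cells) had Timd4 at 97.6 CPM (79 UMIs, interval 77.3 to 122) and Axl at 3.71 (3 UMIs). Timd4 was 18.1-fold higher in the Cd209e-led cells (9.05 to 41.0) and Axl was lower there, at a ratio of 0.0630 (0.0128 to 0.190). The Cd209e-led Timd4 level did not differ from that of the Spic-led macrophage-like cells beyond counting error (ratio 0.679, 0.445 to 1.06), although Mertk had no UMI in it. These cells are part of the conventional dendritic-like class, but the finer clustering left them unnamed: 7 of 8 type 2 dendritic markers were raised, and the leading genes included Cox6a2 and Siglech, which are in the list of plasmacytoid dendritic markers. Where they are taken out of the dendritic-like classes, the share of Timd4 UMIs held by those classes drops from 57.5% to 15.6%.

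The Ccr7-led mature dendritic-like cells (125 cells in the finer clustering) had Mfge8 at 96.4 CPM (36 UMIs, interval 67.5 to 133), 3.65-fold the Ccl17-led level (2.28 to 5.81). A single cell held 10 of these 36 UMIs, and without it the level was 70.5 CPM (46.0 to 103). The Ccr7-led cells also had 20 Timd4 UMIs (53.6 CPM, 32.7 to 82.7) in 8 cells, with 5 UMIs in 1 cell. Havcr2 was lower in them than in the Ccl17-led cells, at 21.4 against 91.8 CPM (ratio 0.233, 0.0990 to 0.472). No Cd36 or Mertk UMI was seen in the Ccr7-led cells.

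The number of the 8 receptors seen in 1 cell was counted after thinning to 2000 UMIs. Among 256 macrophage-like cells, 72.3% had a receptor UMI and no bridge UMI, 3.13% had both, 0.781% had a bridge UMI only and 23.8% had neither. Receptor UMIs without a bridge UMI were found in 40.1% of monocyte-like, 26.6% of conventional dendritic-like, 7.87% of mature dendritic-like and 6.09% of neutrophil-like cells. In 8.99% of mature dendritic-like cells (8 of 89) there was a bridge UMI only, the highest such share among these classes. These shares set 8 receptor genes against 2 bridge genes, of which Gas6 had 3 UMIs in all, so receptor UMIs are more easily seen. Other bridges are not counted in them, and macrophage-like cells held 100 Thbs1 and 20 Pros1 UMIs before thinning. Cells with 2 or more receptors made up 32.0% of macrophage-like (82 of 256, 26.4 to 38.1%), 6.47% of monocyte-like, 3.58% of conventional dendritic-like and 0.508% of neutrophil-like cells. In the Spic-led cluster 69.4% of cells (34 of 49, 54.6 to 81.7%) had 2 or more, in the Prg4-led cluster 30.2% (35 of 116) and in the Cxcl9-led cluster 14.1% (13 of 92).

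**Figure D4:**
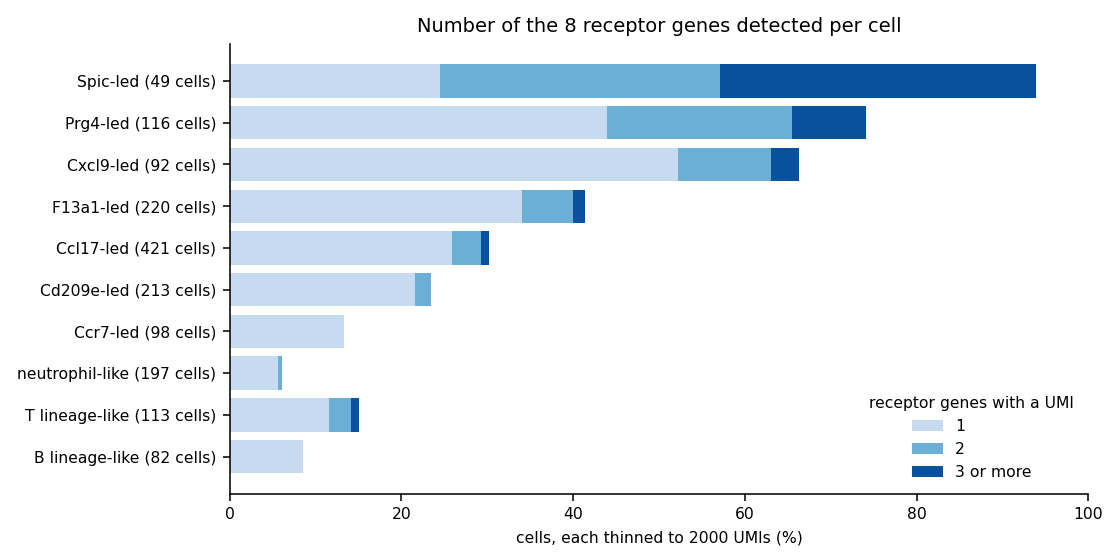
Share of cells (percent, horizontal axis) with a UMI of 1, 2, or 3 or more of the 8 receptor genes after each cell was thinned to 2000 UMIs, for 7 finer clusters and 3 classes, with the number of cells beside each name. Spic-led cells have 2 or more receptors in 69.4% of cells, and neutrophil-like cells in 0.508%.

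Pairs of genes were followed in the same thinned macrophage-like cells. Timd4 was seen in 7 of 25 cells with a Mertk UMI (28.0%, 12.1 to 49.4%) and in 16 of 231 without (6.93%, 4.01 to 11.0045%). At 1000 UMIs the shares were 14.8% (4 of 27, 4.19 to 33.7%) and 5.30% (16 of 302, 3.06 to 8.46%), intervals that overlap. Lrp1 was seen in 40.0% and 27.3% of these cells, intervals that overlap. Axl was seen in 48.0% (12 of 25) and 45.9% (106 of 231). Without thinning Axl was found in 84.5% of 58 cells with Mertk and in 47.6% of the 311 others, and the former were also deeper (median 2935.5 against 2433 UMIs). With all cells thinned to 1000 UMIs, Axl was seen in 13 of 27 cells with Mertk (48.1%, 28.7 to 68.1%) and 81 of 302 without (26.8%, 21.9 to 32.2%). No thinned cell with a Mertk UMI had a Gas6 or an Mfge8 UMI, and none of the 23 cells with an Itgav UMI had an Mfge8 UMI. These counts are too small to set a bridge apart from its receptor within a cell.

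Genes known to act beside these receptors were read from 5 lists, beside the 5.74% of all genes that were at least 2-fold higher and the 3.59% that were lower. Of 10 other receptors with at least 50 UMIs, 4 were at least 2-fold higher in macrophage-like cells than in the rest and none lower, with a median log2 ratio of 0.69. These were Itgb5 (2.42, 100 against 10.7 CPM), the β5 partner of αv, the scavenger receptor Msr1 (1.81), the lipid receptor Trem2 (1.75) and the lipopolysaccharide co-receptor Cd14 (1.17, 123 against 49.1 CPM). The inhibitory receptors Clec12a (193 CPM in macrophage-like cells, log2 ratio 0.57) and Cd300a (168 CPM, 0.64) stayed under the 2-fold mark.

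Of 5 other bridges and eat-me proteins none was 2-fold higher and 1 was lower, with a median of 0.68, and so few genes cannot be told from those background shares. The lower one was Anxa1 (log2 ratio -2.08), an annexin that binds phosphatidylserine, which stood at 95.7 CPM in macrophage-like and 1985 in neutrophil-like cells. Calr, the calreticulin that Lrp1 binds, stood at 466 CPM in both macrophage-like and conventional dendritic-like cells (log2 ratio to all others 0.62). Thbs1, a thrombospondin bound by Cd36, stood at 91.1 CPM in macrophage-like and 243 in neutrophil-like cells (log2 ratio 0.77). Of 10 genes of the engulfment machinery none was 2-fold higher and only Rac2 was lower (-1.48), with a median of 0.25, which is also near the background of 5.74% and 3.59%. The small GTPases Rac1 and Rhog, which drive the membrane around the prey, were at 0.39 and 0.27.

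Lipid handling genes pass on the cholesterol of an ingested cell. Of 8 tested, 4 were at least 2-fold higher and none lower, with a median of 1.01. They were the phospholipid transfer protein Pltp (2.77, 219 against 23.5 CPM), the cholesterol exporters Abca1 (2.72, 149 against 14.2 CPM) and Abcg1 (1.42, 198 against 67.6 CPM), and Nr1h3 (2.32, 79.3 against 7.83 CPM), the liver X receptor that switches them on. Ucp2, a mitochondrial carrier, was at 0.48. Abca1 stood at 413 CPM in Spic-led, 110 in Prg4-led and 35.5 in Cxcl9-led cells, the order that Mertk and Timd4 also had. Of 8 find-me and do-not-eat-me genes, 3 were 2-fold higher (the UDP receptor P2ry6 at 1.15, Cx3cr1 at 1.62 and Sirpa, the receptor of Cd47, at 1.66), 1 was lower (Cd24a, -2.09), and Cd47 itself was at -0.04, with a list median of -0.03.

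Transcripts of the macrophage C1q genes were used to see which member UMIs outside the macrophage-like class came in cells that also held macrophage RNA. This split was chosen after values were seen. Monocyte-like cells with an Axl UMI held C1qa, C1qb and C1qc together at 614 CPM (29 cells, 454 to 811), against 126 in those without. In conventional dendritic-like cells the values were 483 (61 cells, 395 to 584) and 63.0 CPM, in neutrophil-like cells 1208 (6 cells, 837 to 1689) and 66.3, and in B lineage-like cells 1806 (6 cells) and 224. Macrophage-like cells stood at 7296 CPM. In cells with no C1q UMI, Axl was still at 31.0 CPM in 628 conventional dendritic-like cells (68 UMIs, interval 24.1 to 39.3) and 26.6 in 412 monocyte-like cells (23 UMIs). It was at 1.89 CPM in 459 neutrophil-like cells (2 UMIs), and at 0 UMIs in 178 B lineage-like and 104 mature dendritic-like cells, where 28.6 and 15.01 CPM had been seen over all cells.

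Other members were read under the same restriction. Mfge8 in mature dendritic-like cells was at 88.0 CPM in cells with no C1q UMI, with all 26 UMIs kept, and the 16 cells with an Mfge8 UMI held no C1q UMI (upper limit 66.2 CPM, which does not set them apart from the 64.9 CPM of the others). Mfge8-positive T lineage-like cells held C1q at 481 CPM (10 cells, 314 to 705) against 268 (232 to 308), with 19 of their 26 C1q UMIs in 1 cell. Timd4 in conventional dendritic-like cells was at 42.4 CPM (93 of 97 UMIs). Lrp1 in monocyte-like cells was at 220 CPM (190 to 254) and Cd36 at 39.4. Each of these 4 levels stayed within its interval over all cells, whereas Timd4 in monocyte-like cells dropped from 4 UMIs to 1.

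**Figure D5:**
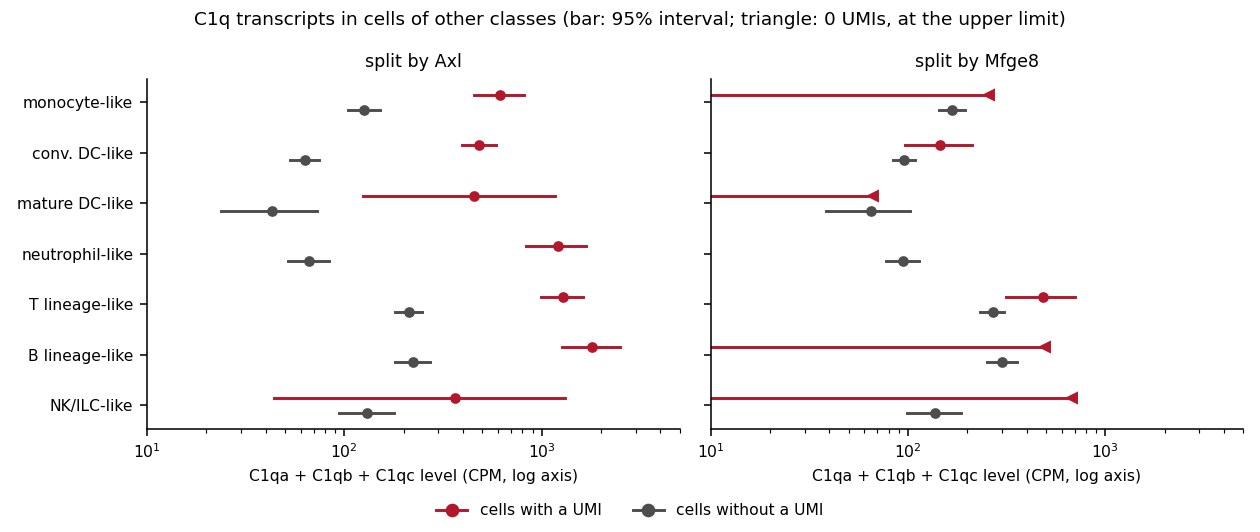
Summed level of C1qa, C1qb and C1qc (CPM, horizontal log axis) in cells of 7 classes other than macrophage-like, with (red) and without (grey) a UMI of Axl (left) or Mfge8 (right); bars are exact 95% Poisson intervals, and a triangle marks 0 UMIs at its upper limit. Axl-positive cells hold more C1q in each class but the natural killer-like one, where intervals overlap, while the 16 Mfge8-positive mature dendritic-like cells hold none, with an upper limit of 66.2 CPM against 64.9 CPM in the others.

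Transcripts of 18 thymocyte genes (T cell receptor complex, recombination and early T cell genes) were counted in the same cells. They made up 0.0233% of UMIs in macrophage-like cells (256 UMIs, interval 0.0206 to 0.0264%), 0.0186% in conventional dendritic-like, 0.0130% in neutrophil-like, 0.00924% in monocyte-like and 1.47% in T lineage-like cells. In macrophage-like cells with an Lrp1 UMI the share was 0.0116% (138 cells, 0.00873 to 0.0150%) and in those without 0.0326%, and it kept that order after thinning (0.00548 and 0.0230%). Lrp1 was not alone in this. For Havcr2 the shares were 0.00894% with a UMI and 0.0270% without, and 0.004 (2 UMIs) and 0.0195% after thinning. For Stab1 they were 0.00942 and 0.0247%, and 0 (10 cells) and 0.0187% after thinning. For Timd4 the shares were 0.0358% with a UMI and 0.0212% without, but 0.00435 and 0.0193% after thinning. For Mertk they were 0.0268 and 0.0225%, and 0.0380 and 0.0158% after thinning. In the cells with Mertk, 1 cell held 18 of the 57 UMIs, and 7 of 19 after thinning. For Itgav the shares were 0.0398 and 0.0205%, but 0.00652 and 0.0191% after thinning. For Cd36 they were 0.0332 and 0.0216%, and 0.0654 and 0.0154% after thinning, where 15 of the 17 UMIs lay in 1 cell. As many as 24 of the 256 UMIs lay in 1 cell, so the intervals, which treat UMIs as independent, are too narrow, and the Timd4 and Itgav orders, and within overlapping intervals that of Axl, turned with thinning. The source of these UMIs was not tested.

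Genes whose levels ran most like each member were sought over the 14 clusters, by Pearson correlation of log2(CPM + 10) across 6707 genes with at least 100 UMIs. The points share 1 library and differ in depth, and the values are a description. For Mertk the closest were Gdf15 (r = 0.98), Spic (0.98) and Fcna (0.97), and for Axl Prxl2b (0.97), Pltp (0.96) and Acp2 (0.95). The Mertk values rest largely on 1 of the 14 points: the Spic-led cluster held 66 of the 95 Mertk UMIs, and Gdf15 and Spic are among its leading genes. Timd4 ran with Plxna1 (0.95), Tns1 (0.93) and Rgl1 (0.91), and Havcr2 with Wfdc17 (0.90), Il13ra1 (0.90) and Pdxk (0.88). For Itgav they were Selenop (0.92), Zfp710 (0.91) and Hpgd (0.91), and for Mfge8 Tuba1a (0.93), Ptger4 (0.91) and Smad1 (0.91). Cd36 ran with Cd180 (0.95), B3gnt8 (0.89) and Pld4 (0.88), and Lrp1 with Plxnb2 (0.96), Adgre1 (0.95) and Clec4a1 (0.94). Among the members themselves Mertk and Axl stood at 0.90 and Cd36 and Lrp1 at 0.85, whereas Itgav and its bridge Mfge8 stood at -0.42. All 14 clusters counted alike in r. The basophil or mast-like cluster (11 cells, 11330 UMIs) had no Itgav UMI, and its 1 Mfge8 UMI made 88.3 CPM. This point enters the -0.42 and the values of the genes closest to Mfge8, and r without it was not computed.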

How the data were processed

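Counts were deposited by the authors as raw UMI counts per gene and barcode, made with Cell Ranger 6.0.0 (2021) and 8.0.0 (2024) per the file headers, on mm10 per the submitters' processing notes. Gene coordinates are from GENCODE M21 (GRCm38). The 2024 library, for which no gene names were used, gives depth only. Scrublet in scanpy 1.11.5 called 3 doublets of 3188 cells (0.0941%, expected 6%), which were removed. A caller that marks so few has not worked, and an alternative removed the 6% with the highest scores. Cells were scaled to 10000 UMIs and log-transformed. The 10 members and the pathway lists were left out before 2000 variable genes, 30 components, 15 neighbours and Leiden clustering (igraph 0.11.9) at resolution 0.5, or 1 for finer clusters.

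A cluster took the class of the list with the largest share of raised markers (log2 ratio of at least 1, 10 CPM added), given at least 3 raised and no other class with more markers raised or among the 10 leading genes. Names are rebuilt and can differ from the study's. Levels are summed UMIs per 1000000 UMIs. All 10 members are named; of each pathway list the 3 highest in macrophage-like cells, those with a log2 ratio of at least 2, and those past the 2-fold mark are named. Members and lists were chosen with earlier results of these data known, and naming details, finer clusters and the C1q split after seeing the cells. The log2 ratio and the Poisson interval were tested on simulated counts, and the depth after thinning was checked on some of the real cells. The other steps, among them clustering, class naming and doublet calling, were not tested in this way. Alternatives changed the cell filter, doublets, resolution, clustering genes, class assignment, level, thinning depth, added CPM, low-gene filter and scaling. No sequences are printed.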

Additional observations from a re-analysis of the deposited data

How the results depend on the processing

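Of 210 alternative values of 38 results, 177 stayed within the counting interval of the main value (counts within 1.5 times), and 33 moved further. In thymocyte RNA the order of positive and negative cells turned under thinning for Timd4 and Itgav and, within overlapping intervals, for Axl. The number of members at least 2-fold higher in macrophage-like cells ran from 5 to 7 against all others, from 3 to 4 against monocyte-like and from 5 to 6 against conventional dendritic-like cells. Over all genes, 826 were at least 2-fold higher than in all other cells with 1 CPM added (506 with 10 CPM), and 630 than in monocyte-like cells among genes with at least 10 UMIs (343 with at least 50). Median-of-ratios scaling would shift the log2 ratios by 0.10, 0.05 and 0.17 in these comparisons. With at least 1000 UMIs and 500 genes per cell, Axl stood at 473 CPM in macrophage-like cells, and the shares were 14.2% of Timd4 and 46.1% of Havcr2 UMIs in dendritic-like and 33.3% of Cd36 and 45.7% of Lrp1 UMIs in monocyte-like cells. Without the 6% of cells with the highest doublet scores, macrophage-like cells held 74.4% of Axl UMIs, and dendritic-like cells 20.5% of Timd4 and 46.2% of Havcr2 UMIs. At resolution 1, macrophage-like levels were 83.2 CPM for Timd4, 117 for Mertk, 458 for Axl and 70.2 for Cd36. The shares were 53.9% of Axl in macrophage-like, 15.6% of Timd4 and 42.6% of Havcr2 in dendritic-like and 50% of Lrp1 in monocyte-like cells. With classes from marker UMIs the shares were 56.2% of Axl in macrophage-like, 41.4% of Timd4, 44.7% of Havcr2 and 43.2% of Mfge8 in dendritic-like and 34.2% of Itgav in monocyte-like cells. The mean of each cell's CPM gave 92.9 for Timd4 and 478 for Axl. Thinning to 1000 UMIs, which by construction lowers detection, gave macrophage-like shares of 6.38% for Havcr2, 1.52% for Stab1, 28.6% for Axl, 4.86% for Itgav and 17.9% for Lrp1, and 18.5% of cells with 2 or more receptors. Without thinning, 84.5% of macrophage-like cells with Mertk had Axl. Thinned before detection, the thymocyte share was 0.00435% with Timd4, 0.0380% with Mertk and 0.00548% with Lrp1. The fall of the Timd4 share in dendritic-like cells at resolution 1 follows from the Cd209e-led cells being unnamed there. Dendritic-like shares here sum the conventional and mature classes only. With at least 1000 UMIs and 500 genes, 144 cells were named plasmacytoid dendritic-like, and with classes from marker UMIs 159, against 0 in the main run. Without the highest doublet scores 248 cells were unnamed, against 130. For moves other than that fall the cause was not tested. No paired analysis was possible because 1 library has gene names, and for the same reason no replicate could be left out. Gas6 and Stab1 rest on 3 and 29 UMIs.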

Other observations

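Macrophage-like cells were also divided by the UMIs of 2 marker lists, a split chosen after values were seen. The 11 cells with at least 3 UMIs of the serous-cavity macrophage list (Prg4, Alox15, Gata6 and others) had Cd36 at 408 CPM (16 UMIs), 11.999-fold the 34.0 CPM of the other 358 cells (6.22 to 22.2). Timd4 stood there at 230 CPM (9 UMIs), 4.26-fold higher (1.86 to 8.67), and Lrp1 at 485 CPM (19 UMIs), 2.45-fold higher (1.45 to 3.93). Stab1 and Havcr2 had no UMI in these 11 cells, and Axl stood at 255 against 419 CPM (ratio 0.609, 0.290 to 1.13). The median depths were 2506 and 2476 UMIs.

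The 127 cells with at least 3 UMIs of the iron-handling list (Vcam1, Spic, Slc40a1, Hmox1, Gdf15, Cd163 and Cd5l) held 84 of the 91 macrophage-like Mertk UMIs. Mertk stood at 196 CPM in them and 10.5 in the other 242 cells, an 18.8-fold ratio (8.73 to 48.2), while Axl stood at 594 and 297 CPM, a ratio of 1.998 (1.65 to 2.42). Cd36 (46.8 and 47.8 CPM) and Stab1 (28.1 and 20.9 CPM) did not differ between these cells beyond counting error. The median depths were 2717 and 2393 UMIs.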
